A study of Homo sapiens with 2 samples.

Results

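Long intergenic noncoding RNAs are transcribed, spliced and mostly polyadenylated like messenger RNAs, but carry no long open reading frame. Genes of this kind that have no established function are given a LINC symbol with a serial number. The genes described here were the LINC-numbered genes with 50 or more counts summed over both libraries: 135 of the 596 LINC-numbered genes listed, among 14157 genes of any kind past that minimum and 28038 listed in all. They were chosen by symbol and by summed counts, so their abundance is a description and not a finding. Poly(A) RNA had been sequenced in 1 library from cells overexpressing IGF2BP3 and 1 from control cells that carried a blank viral vector, both labelled OVCAR-3, an established human ovarian carcinoma line. The labels do not say whether the overexpressing cells were 1 clone or a pool. IGF2BP3 is an RNA-binding protein that reads the m6A mark and is known for prolonging the life of the transcripts it binds. Noncoding RNAs, which can also carry m6A, are among its reported partners.

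The overexpression library held 48017861 counts and the control library 43190215. IGF2BP3 itself had 6376 counts in the overexpression library and 2944 in the control library, a ratio of 1.95 (1.87 to 2.04). FASN, the fatty acid synthase gene of the series title, had 26594 counts in the overexpression library and 22083 in the control library, a ratio of 1.09 (1.07 to 1.10). Ratios were taken after TMM scaling, and the bracketed values are 95% exact counting intervals. With 1 library per group there was no replicate error and no test, so every difference is between these 2 libraries. Of the 8 epithelial markers checked, KRT18 reached 10 CPM (counts scaled to library size), at 102 CPM in the overexpression library and 103 CPM in the control library. The adhesion gene CDH1 had 2 counts in each library. None of the 3 listed markers of ovarian serous and Mullerian cells, out of 7 chosen, reached that level in either library. Of 5 mesenchymal markers 3 reached it, led by the filament gene VIM at 2144 CPM in the overexpression library and 2180 CPM in the control library, while the matrix gene FN1 had 2.36 CPM in the overexpression library and 3.03 CPM in the control library and SNAI2 was near 0. The label of the line was thus not matched by most of these markers in either library. Leukocyte and endothelial markers were near 0, with 4 counts of PTPRC and 4 of VWF in the overexpression library and 0 of each in the control library.

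LINC RNAs as a group were nearly level between the libraries, and among those at least 1.5-fold different more were higher than lower. Of the 135, 77 stood above 1-fold in the overexpression library and 58 below. Their median log2 ratio was 0.04, beside 0.00 over all 14157 genes. The ratios ran between 0.544 and 2.42, and 114 of the 135 lay within 1.5-fold of the control level. In bulk RNA, fewer cells making a transcript and less of it per cell cannot be told apart. At least 1.5-fold higher, with an interval that left out 1-fold, were 14 members (10.4%), where 2.85% of all genes met the same rule. At least 1.5-fold lower were 2 members (1.48%), against 2.23% of all genes. At 2-fold, 3 members were higher (2.22%, against 0.982% of all genes) and 0 lower (against 0.812%). Lower members at 2-fold appeared with a count minimum of 10, where 16 of 293 were higher and 9 lower, and with no minimum 47.7% of 398 stood above 1-fold. No share over all genes was taken at these other minimums to set beside them.

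The shares at 1.5-fold were also taken among genes of like counts. Among genes with 50 to under 200 counts, 12 of 75 LINC RNAs (16%) were at least 1.5-fold higher and 2 (2.67%) at least 1.5-fold lower, while 9.69% of all 2683 genes in that range were higher and 8.46% lower. From 200 to under 1000 counts the LINC RNAs gave 2 of 45 higher (4.44%) and 0 lower, beside 3.74% and 2.57% of all genes. The 15 LINC RNAs with 1000 or more counts held none in either direction, and their ratios ran only between 0.887 and 1.25. Over all genes with 1000 or more counts 0.498% were higher and 0.227% lower. The LINC RNAs' share on the higher side was nearer to that of all genes within each range than over all counts. On the lower side it was further below that of all genes in both ranges under 1000 counts. Over all counts the lower side had 1.48% of LINC RNAs against 2.23% of all genes.

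**Figure D1:**
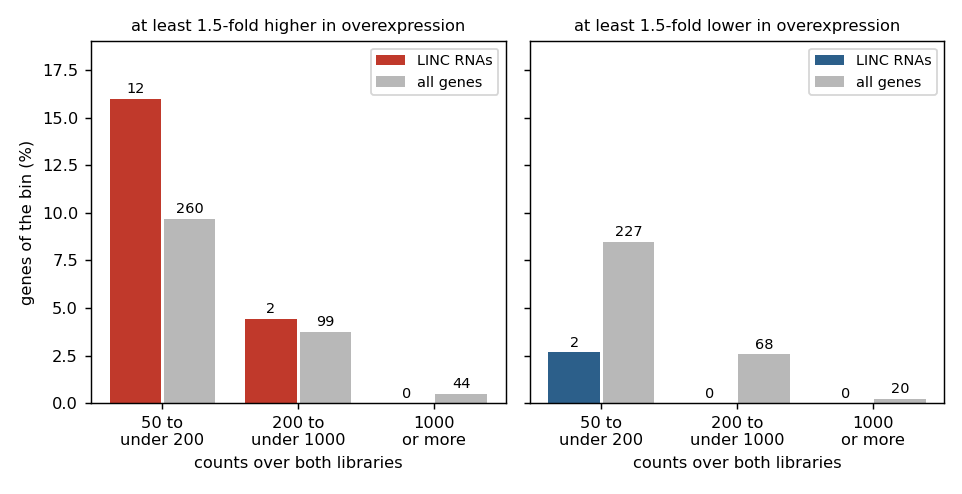
Share of genes at least 1.5-fold higher (left) or lower (right) in the overexpression library and with an interval that leaves out 1-fold, for LINC RNAs (coloured) and all genes (grey), by summed counts. Numbers above the bars are genes, and in the range of 50 to under 200 counts 16% of LINC RNAs were higher and 2.67% lower.

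**Figure D2:**
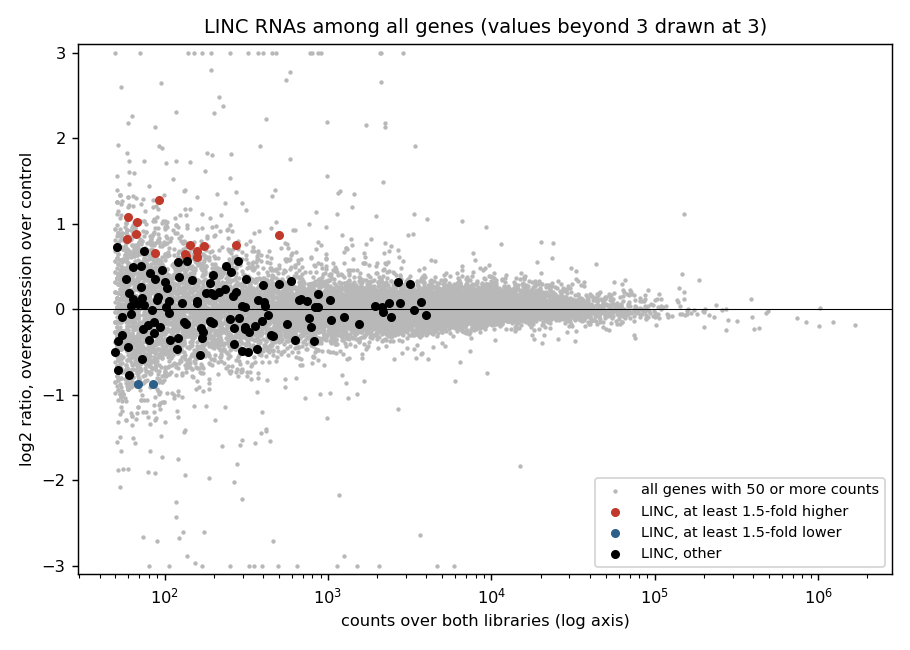
Log2 ratio, overexpression over control, against counts over both libraries for all 14157 genes (grey) and the 135 LINC RNAs (black, with the 14 higher ones in red and the 2 lower ones in blue). The LINC RNAs lie at the left, with 174 counts at the median, where the spread of all genes is widest.

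Counting error limits what can be read. A ratio of 1.5 needs at least 108 counts over both libraries for its interval to leave out 1-fold, and a ratio of 2 needs 42. Among listed LINC genes with 1 to 20 counts, 69.9% of counts were even in the overexpression library and 66.8% in the control library. Among all listed genes with 1 to 20 counts, 63.3% were even in the overexpression library and 64.1% in the control library. Whether the 2 reads of a pair were counted separately is not given in the sources used here and was not tested. The members' own, larger counts were even in 67 of 135 cases in the overexpression library and in 65 in the control library. Intervals from halved counts, the wider choice, are therefore also given. With them 5 members (3.70%) were at least 1.5-fold higher and 0 lower, while 1.74% of all genes were higher and 1.32% lower. Shares with halved counts were not taken among genes of like counts.

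Ranked by FPKM, which corrects for transcript length, LINC RNAs were low. Their median level was 0.630 FPKM in the overexpression library and 0.607 FPKM in the control library, against 5.62 and 5.61 FPKM for measured protein-coding genes. In each library 42 of the 135 reached 1 FPKM. Together they took up 0.0702% of the overexpression library's counts and 0.0684% of the control library's. The 15 highest held 54.8% of the summed FPKM of all 135 in the overexpression library and 53.4% in the control library.

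LINC02154, on chromosome X (GRCh38, 13266048 to 13303452, minus strand), was the highest of all, at 24.4 FPKM (1835 counts) in the overexpression library and 20.0 FPKM (1353 counts) in the control library. Its ratio was 1.22 (1.14 to 1.31), and the interval from halved counts, 1.11 to 1.35, also left out 1-fold. LINC00857, the second in rank (chromosome 10, 80207710 to 80219657), reported to favour growth in several carcinomas, stood at 10.5 FPKM in the overexpression library and 10.03 FPKM in the control library, a ratio of 1.05 (0.967 to 1.14). No other of the 135 reached 10 FPKM in either library.

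The next ranks were close to each other, and their ratios were near 1-fold. LINC02643, a short transcript of 439 bases, had 9.58 FPKM in the overexpression library and 8.91 FPKM in the control library. LINC03057, which lies beside HOXB7 in the HOXB cluster on chromosome 17, had 8.31 FPKM in the overexpression library and 8.85 FPKM in the control library. LINC02084, 1944 bases from EOMES, a T-box transcription factor gene, had 7.07 FPKM in the overexpression library and 6.53 FPKM in the control library. None of these 3 ratios had an interval that left out 1-fold.

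LINC00839 had the most counts of any member, 2052 in the overexpression library and 1947 in the control library, but per length it was at rank 6, with 5.07 FPKM in the overexpression library and 5.35 FPKM in the control library. That rank rests on the length of 8423 bases that the deposited counts and FPKM imply, where GENCODE release 29 has 2337 exonic bases. LINC00294 was the single one of the 15 highest that was lower with an interval leaving out 1-fold, at 4.87 FPKM in the overexpression library and 5.50 FPKM in the control library (ratio 0.887, 0.802 to 0.981), and its interval from halved counts, 0.769 to 1.02, reached 1-fold. It overlaps an exon of CSTF3 on the opposite strand, and the strand setting of the counting is not given in the sources used here, so reads of the 2 genes cannot be told apart. LINC00342 had 4.87 FPKM in the overexpression library and 4.59 FPKM in the control library, but 46.7% of its 31-base words also occur in 1 other annotated gene, and its implied length of 8599 bases compares with 2618 in GENCODE, which makes its level uncertain. LINC00501, LINC00641 and LINC01963 likewise differed by less than their counting error, with ratios between 0.919 and 1.06.

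**Figure D3:**
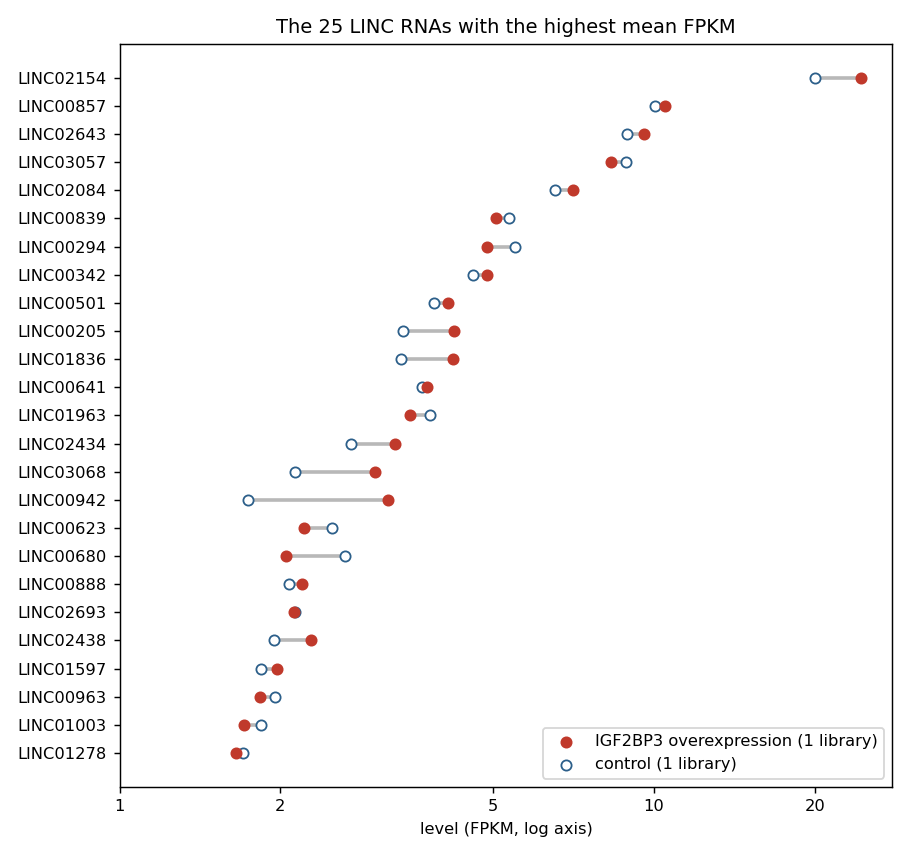
Level in FPKM (log axis) of the 25 LINC RNAs with the highest mean, in the overexpression library (filled) and the control library (open). LINC02154 stands apart at 24.4 and 20.0 FPKM, and LINC00942, with 3.18 FPKM in the overexpression library and 1.74 FPKM in the control library, has the widest gap.

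Of the 15 highest, 11 were above 1-fold, and 4 had an interval that left out 1-fold on the higher side. Besides LINC02154 these were LINC00205, LINC01836 and LINC03068. LINC00205 (chromosome 21, 45288050 to 45297806, plus strand) had 1548 counts in the overexpression library and 1117 in the control library, a ratio of 1.25 (1.16 to 1.35). It starts 152 bases from POFUT2, a protein O-fucosyltransferase gene read the other way, which had 1225 counts in the overexpression library and 1042 in the control library (1.06, 0.975 to 1.15). LINC01836 had 348 counts in the overexpression library and 250 in the control library (1.25, 1.06 to 1.48), but its interval from halved counts, 0.991 to 1.59, reached 1-fold. LINC03068 is taken up below with its partner.

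The higher LINC RNAs were mostly rare. The 14 that were at least 1.5-fold higher had between 59 and 503 counts over both libraries, and none exceeded 3.18 FPKM in the overexpression library. LINC00942 (chromosome 12, 1500525 to 1504424, plus strand) was the most abundant of them, at rank 16 of 135. It had 337 counts, 3.18 FPKM, in the overexpression library and 166 counts, 1.74 FPKM, in the control library. The ratio of 1.83 (1.51 to 2.22) kept an interval of 1.40 to 2.41 with halved counts. In breast cancer cells LINC00942 has been reported to recruit the m6A methyltransferase METTL14, as background. ERC1, a scaffold gene 4592 bases away on the same strand, stood at 1.04 (0.983 to 1.10).

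LINC01508 (chromosome 9, 90300902 to 90433505, minus strand) had the highest ratio of all. It had 67 counts in the overexpression library and 25 in the control library, or 0.695 FPKM in the overexpression library and 0.288 FPKM in the control library, a ratio of 2.42 (1.51 to 3.99, or 1.23 to 5.06 with halved counts). No other measured gene lies within 100 kb of it. Its nearest measured coding gene, DIRAS2, a Ras-family GTPase gene 176327 bases away, was higher as well, with 913 counts in the overexpression library and 466 in the control library (1.77, 1.58 to 1.98).

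LINC01203 on chromosome X (13334776 to 13403019, plus strand) had 177 counts in the overexpression library and 95 in the control library, a ratio of 1.68 (1.30 to 2.18). It lies 31324 bases from LINC02154 and runs away from it on the other strand, so the most abundant LINC RNA and one at a ratio past 1.5 were neighbours. The nearest measured coding gene of LINC01203, TCEANC, 250170 bases away, was lower. TCEANC had 81 counts in the overexpression library and 106 in the control library (0.689, 0.509 to 0.928). LINC00578, on chromosome 3, had 93 counts in the overexpression library and 50 in the control library (1.68, 1.18 to 2.41). LINC01224, on chromosome 19 beside the zinc finger gene ZNF91, had 113 counts in the overexpression library and 61 in the control library (1.67, 1.21 to 2.32). These 3, with LINC01508 and LINC00942, were the 5 that stayed at least 1.5-fold higher with halved counts.

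The other 9 higher members had intervals from halved counts that reached 1-fold. LINC00632, the host transcript of the circular RNA CDR1as, had the lowest mean level per length, at 0.0303 FPKM (42 counts) in the overexpression library and 0.0144 FPKM (18 counts) in the control library. Its ratio was 2.10 (1.18 to 3.88), and it overlaps CDR1 on the opposite strand. LINC02802 had 47 counts in the overexpression library and 21 in the control library (2.02, 1.18 to 3.55), with 59.7% of its 31-base words in another annotated gene. LINC02804 stood at 1.84 (1.08 to 3.22) and LINC00937 at 1.76 (1.00 to 3.18). LINC00470, LINC01483, LINC01273, LINC02976 and LINC01060 had ratios between 1.53 and 1.60. The interval of LINC00937 reached 1-fold when library totals were used for scaling.

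Promoter windows are shown for 4 of the 5 members that stayed at least 1.5-fold higher with halved counts, for LINC02870, whose window is shared with LINC03068, and for LINC00205, which starts beside a coding gene. Each window holds 250 bases before and 50 after the start that RefSeq gives (GRCh38.p14), 5′ to 3′ on the strand of the gene. RefSeq windows were matched by symbol for 97 of the 135 members. Capitals mark matches, on either strand, to TATAAA (the TATA box), CCAAT (the core of NF-Y sites), GGGCGG (the core of Sp1 sites), TGANTCA (the core of AP-1 sites), TGACNNNGC (the core of the antioxidant response element) and CACGTG (the E-box bound by MYC and USF), where N is any base and overlaps between motifs were allowed.
LINC01508 (chr9:90433440-90433739, minus strand): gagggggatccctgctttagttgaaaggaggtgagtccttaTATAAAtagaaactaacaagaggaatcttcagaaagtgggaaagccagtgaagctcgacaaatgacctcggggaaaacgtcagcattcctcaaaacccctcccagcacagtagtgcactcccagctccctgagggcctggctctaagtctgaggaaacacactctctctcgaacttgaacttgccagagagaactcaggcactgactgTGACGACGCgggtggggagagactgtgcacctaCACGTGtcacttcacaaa
LINC00942 (chr12:1500241-1500540, plus strand): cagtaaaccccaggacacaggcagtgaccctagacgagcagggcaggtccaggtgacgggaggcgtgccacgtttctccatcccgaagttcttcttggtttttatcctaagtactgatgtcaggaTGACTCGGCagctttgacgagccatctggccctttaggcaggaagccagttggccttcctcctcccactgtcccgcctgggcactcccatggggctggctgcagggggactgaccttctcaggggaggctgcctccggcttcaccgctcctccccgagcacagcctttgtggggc
LINC00578 (chr3:177441671-177441970, plus strand): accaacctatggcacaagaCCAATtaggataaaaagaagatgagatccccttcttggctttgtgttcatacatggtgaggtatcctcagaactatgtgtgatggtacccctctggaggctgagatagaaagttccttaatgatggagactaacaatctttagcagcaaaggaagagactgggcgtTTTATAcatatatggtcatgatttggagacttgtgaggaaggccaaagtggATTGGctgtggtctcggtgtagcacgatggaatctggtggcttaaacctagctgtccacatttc
LINC01224 (chr19:23416025-23416324, minus strand): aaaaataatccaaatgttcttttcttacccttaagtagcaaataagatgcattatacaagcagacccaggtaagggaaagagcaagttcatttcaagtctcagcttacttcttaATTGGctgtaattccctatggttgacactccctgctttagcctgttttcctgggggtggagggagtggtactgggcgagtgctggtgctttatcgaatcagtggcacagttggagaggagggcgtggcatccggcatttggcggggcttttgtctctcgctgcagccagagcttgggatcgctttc
LINC02870 (chr10:132444939-132445238, plus strand): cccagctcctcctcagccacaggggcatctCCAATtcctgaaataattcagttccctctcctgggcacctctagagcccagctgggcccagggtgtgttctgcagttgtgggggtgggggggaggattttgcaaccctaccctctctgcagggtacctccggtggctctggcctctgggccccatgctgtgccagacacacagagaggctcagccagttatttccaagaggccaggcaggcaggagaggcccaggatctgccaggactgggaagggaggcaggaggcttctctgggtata
LINC00205 (chr21:45287802-45288101, plus strand): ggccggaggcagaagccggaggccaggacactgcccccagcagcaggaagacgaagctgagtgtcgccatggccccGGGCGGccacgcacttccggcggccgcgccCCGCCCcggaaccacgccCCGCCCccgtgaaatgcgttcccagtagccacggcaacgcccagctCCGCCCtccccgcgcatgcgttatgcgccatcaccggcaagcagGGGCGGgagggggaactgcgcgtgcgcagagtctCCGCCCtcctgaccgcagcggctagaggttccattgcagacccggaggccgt

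The windows differ in kind. That of LINC00205 holds 34 CpG dinucleotides, 0.872 of the number its base composition would give, and several matches to GGGCGG. The windows of LINC01508, LINC00942, LINC00578 and LINC01224 hold 8, 11, 3 and 7 CpG, at 0.410, 0.391, 0.211 and 0.413 of that number. Over the 9 of the 14 higher members with a window the median was 0.391, over the 87 members in neither set 0.598, and over all 35116 windows 0.579. LINC01508 and LINC00578 have a TATAAA match, the 2 of the 9 higher members' windows that do, as 16.5% of the members' windows and 11.5% of all windows do. TGACNNNGC occurs in the windows of LINC01508 and LINC00942, in 3 of the 9 higher members' windows in all, in 23.7% of the members' windows and in 13.3% of all windows. CCAAT occurs in 49.5% of the members' windows and 34.6% of all windows, GGGCGG in 48.5% and 45.0%, TGANTCA in 9.28% and 7.71%, and CACGTG in 7.22% and 7.26%. These are matches of letters, not sites shown to be used.

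LINC03068 and LINC02870 on chromosome 10 are read in opposite directions. RefSeq places their starts 207 bases apart, so that their windows share 294 of 300 bases. In GENCODE the genes lie 2843 bases apart, so the shared window rests on the RefSeq starts alone. Both were higher, by amounts within each other's interval. LINC03068 had 146 counts, 3.002 FPKM, in the overexpression library and 93 counts, 2.13 FPKM, in the control library, a ratio of 1.41 (1.08 to 1.86). LINC02870 had 175 counts, 1.70 FPKM, in the overexpression library and 107 counts, 1.16 FPKM, in the control library, a ratio of 1.47 (1.15 to 1.89). With halved counts the interval of LINC02870, 1.04 to 2.11, left out 1-fold and that of LINC03068, 0.966 to 2.09, did not. PWWP2B, the nearest measured coding gene of both, stood at 0.899 (0.813 to 0.994). The shared window holds 1 CpG and a CCAAT match.

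**Figure D4:**
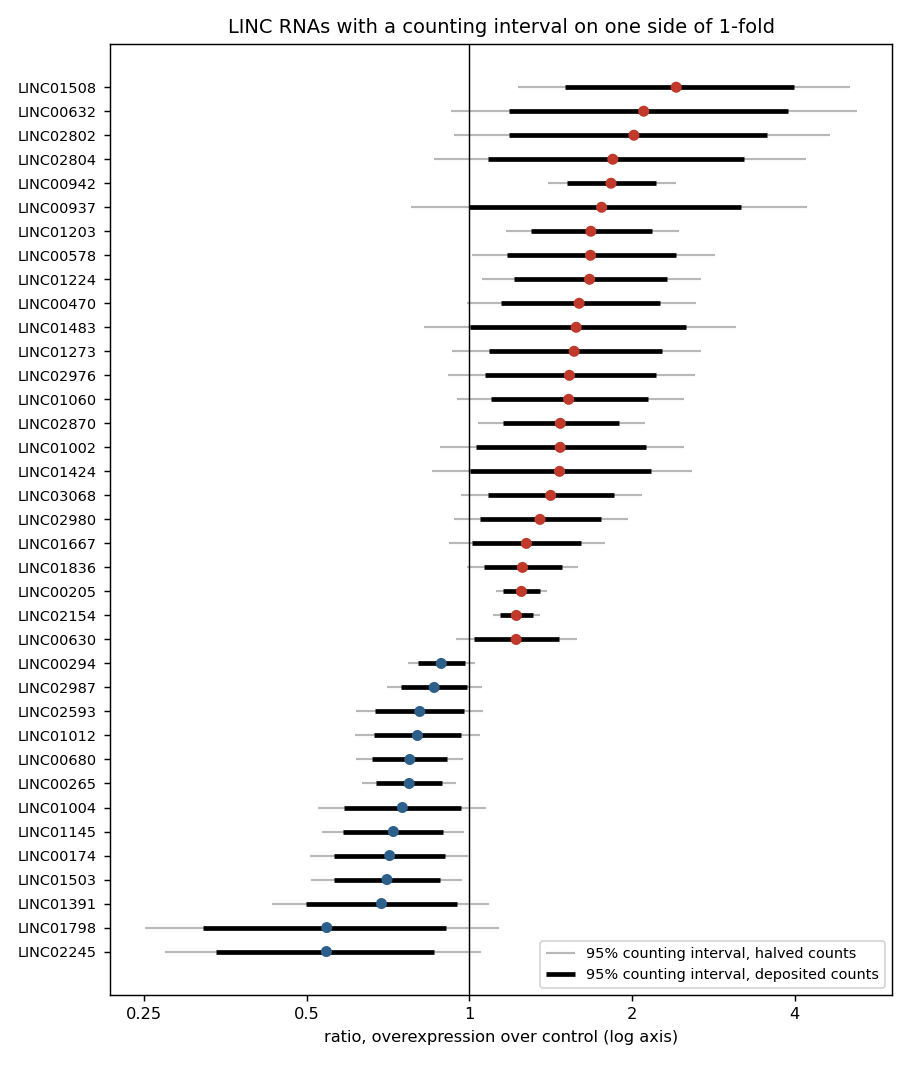
Ratio, overexpression over control (log axis), of the 37 LINC RNAs whose 95% counting interval from deposited counts (thick line) lies on one side of 1-fold, with the interval from halved counts (thin line). Of these, 24 are above 1-fold and 13 below, and 13 thin lines stay clear of 1-fold.

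Fewer LINC RNAs were lower. Of the 135, 13 had an interval wholly below 1-fold (9.63%, beside 19.7% of all genes) and 24 wholly above (17.8%, beside 21.7%). Whether an interval leaves out 1-fold depends on counts, at a median of 174 in LINC RNAs and 2031 over all genes. These shares were not taken among genes of like counts. LINC02245 had 32 counts in the overexpression library and 53 in the control library (0.544, 0.339 to 0.860). LINC01798 had 26 counts in the overexpression library and 43 in the control library (0.545, 0.321 to 0.907). It lies 161 bases from MEIS1, a homeobox gene, which was level at 1.03 (0.966 to 1.09). Both intervals reached 1-fold with halved counts.

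With halved counts 5 LINC RNAs stayed below 1-fold, none by 1.5-fold. LINC01503, reported as an oncogenic transcript of squamous carcinoma, had 143 counts in the overexpression library and 183 in the control library, a ratio of 0.704 (0.562 to 0.881). LINC00174 had 132 counts in the overexpression library and 167 in the control library (0.712, 0.563 to 0.900), and its exons overlap those of other annotated genes. LINC01145 had 163 counts in the overexpression library and 203 in the control library (0.724, 0.585 to 0.894). LINC00265 stood at 0.774 (0.673 to 0.890) and LINC00680 at 0.776 (0.662 to 0.910). LINC00265 shares 25.5% of its 31-base words with a pseudogene, so its ratio is uncertain. LINC01391, 204 bases from the ovarian transcription factor gene FOXL2, had 71 counts in the overexpression library and 93 in the control library (0.688, 0.498 to 0.947), while FOXL2 had 815 in each (0.901, 0.817 to 0.994). The interval of LINC01391 from halved counts, 0.432 to 1.09, reached 1-fold.

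A list of 28 LINC symbols with reported roles in tumour cells was drawn up from general knowledge and is not complete: it leaves out LINC00942, at 1.83. Of the 28, 17 were listed and 9 passed the count minimum. Their median log2 ratio was 0.02, with 5 above 1-fold, 4 below and none at least 1.5-fold different. The intervals of LINC00205 and LINC01503 alone left out 1-fold. LINC00963 stood at 0.938 (0.866 to 1.02), LINC00662 at 1.05 (0.971 to 1.13), LINC01232 at 1.08 (0.922 to 1.26), LINC00839 at 0.950 (0.892 to 1.01) and LINC01116 at 0.862 (0.685 to 1.08). LINC00467, the single listed member of 10 symbols with a reported microprotein, had 459 counts in the overexpression library and 408 in the control library (1.01, 0.885 to 1.16). LINC00511, a much studied transcript in carcinomas, had 4 counts in the overexpression library and 6 in the control library and fell short of the minimum, as did LINC00665 with 13 counts in the overexpression library and 12 in the control library. LINC01138, named here after its values were seen because IGF2BP3 has been reported to stabilise it in liver cancer cells, had 96 counts in the overexpression library and 95 in the control library. Its ratio of 0.911 had an interval of 0.679 to 1.22. The exons of LINC01138 overlap those of 5 other annotated genes, and 25.6% of its 31-base words also occur in other genes. Its ratio is therefore uncertain.

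Of the 135, 129 matched GENCODE release 29 by gene ID. They lay on 23 chromosomes, and 105 were typed there as lincRNA, 12 as processed transcript and 9 as antisense. LINC02693 was typed as protein coding. The longest annotated transcript had a median of 2101 bases and 3 exons, against 3407 bases over all 13818 measured genes that matched. GC content had a median of 48.6% in LINC RNAs and 47.7% over all these genes. GGACT, a common form of the m6A motif, occurred in 100 of the 129 longest transcripts (77.5%, beside 90.0% over all these genes). Its median was 0.905 per kb beside 0.914 per kb over all genes. In the 14 higher members it was 0.740 per kb and in the 113 that were neither higher nor lower 0.913 per kb. LINC01508, LINC00578 and LINC01224, 3 of the 5 that stayed higher with halved counts, held no GGACT in their longest transcript. TGGAC, another form of the motif, occurred 2 times in that of LINC01508, 1 time in that of LINC00578 and 5 times in that of LINC01224. In the longest transcript of LINC00942 TGGAC occurred 1 time and in that of LINC01203 0 times. No share of TGGAC was taken over all members or all genes to set beside these counts.

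Nearest measured coding genes were compared with each LINC RNA. Over 129 members the rank correlation of a member's ratio with that of its nearest measured coding gene was 0.16, as a description across genes, and 70 of the 129 lay on the same side of 1-fold as that gene. The median distance was 21041 bases, and 50 members lay within 10 kb. At least 1.5-fold different, with an interval leaving out 1-fold, were the neighbours of 5 members on the higher side and of 2 on the lower, out of 129. Over all 11613 measured coding genes, 241 were higher and 185 lower by that rule. TRIML2, a tripartite motif gene on chromosome 4, was the neighbour of 2 of the 5. It had 1514 counts in the overexpression library and 850 in the control library (1.61, 1.47 to 1.75). LINC01060, 291133 bases from it, had 100 counts in the overexpression library and 59 in the control library (1.53, 1.10 to 2.14). LINC02434, 50462 bases from it, had 229 in the overexpression library and 170 in the control library (1.21, 0.991 to 1.49).

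Other neighbours differed where the LINC RNA was level. LPCAT1, a lipid acyltransferase gene, had 57 counts in the overexpression library and 208 in the control library (0.247, 0.181 to 0.332), while LINC03067, 70649 bases away, stood at 1.12 (0.842 to 1.497). The kinase gene MYLK4 stood at 3.49 (2.45 to 5.08) and LINC01600 near it at 0.854 (0.526 to 1.38). Conversely, LINC01273 was at 1.56 (1.09 to 2.27), where CEBPB, a bZIP factor gene 14063 bases away, was at 0.726 (0.626 to 0.841). In 8 pairs the LINC RNA started within 1 kb of a coding gene read the other way. LINC01135, the partner of JUN, had 28 counts in the overexpression library and 27 in the control library, where JUN stood at 0.835 (0.774 to 0.901).

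**Figure D5:**
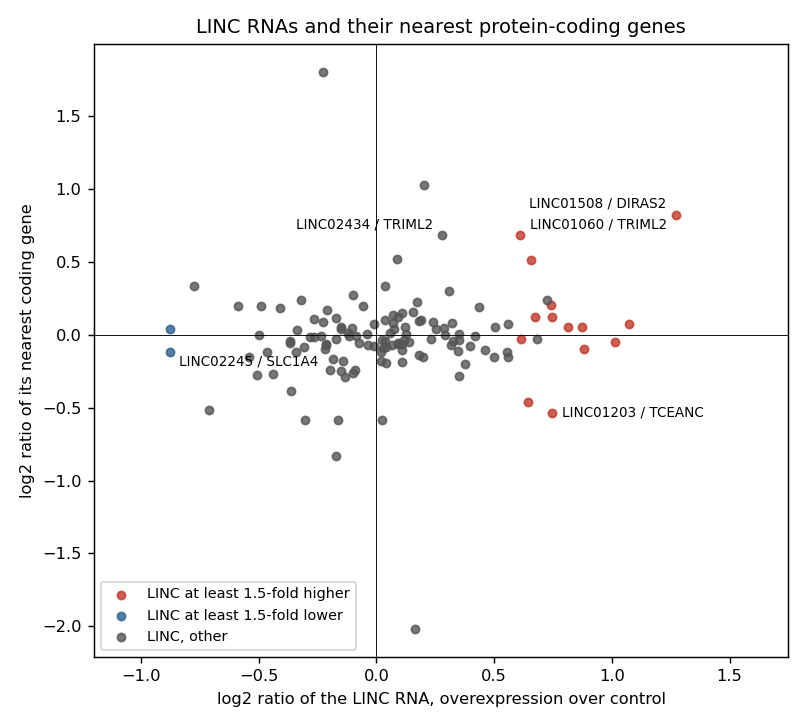
Log2 ratio, overexpression over control, of 129 LINC RNAs (horizontal) and of the nearest measured protein-coding gene (vertical), with LINC RNAs at least 1.5-fold higher in red and lower in blue. Of the 14 red points, 9 lie above the horizontal line, among them LINC01508 with DIRAS2, LINC01060 with TRIML2 and LINC01483 with MAP2K6 at 1.43-fold. Below it lie others, among them LINC01203 with TCEANC at 0.689-fold.

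Other lncRNA classes defined by symbol are given beside them. Of 382 measured antisense genes, 27 were at least 1.5-fold higher and 18 at least 1.5-fold lower, with a median log2 ratio of 0.03. Of 163 divergent transcripts, 8 were higher and 6 lower, with a median of -0.01. Over all 14157 genes 2.85% were higher and 2.23% lower. Median counts over both libraries were 163 in the antisense genes and 138 in the divergent transcripts. Over all genes with 50 to under 200 counts, 9.69% were higher and 8.46% lower. Shares of these classes were not taken among genes of like counts. Among 21 miRNA host genes 1 was higher and 1 lower, and among 20 snoRNA host genes and 6 intronic transcripts none. The snoRNA host genes had a median of -0.18, with 4 of 20 above 1-fold. Protein-coding genes, 11613 of them, had a median of 0.00.

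Members near the count minimum are given as a description. The lowest members were LINC02901 with 22 counts in the overexpression library and 28 in the control library, LINC02606 with 33 in the overexpression library and 18 in the control library, and LINC00106 with 24 in the overexpression library and 28 in the control library. Just short of it were LINC02925 with 33 in the overexpression library and 16 in the control library, LINC00472 with 23 in each, and LINC01829 with 19 in the overexpression library and 27 in the control library. Of all 596 listed LINC genes, 86 had 0 counts in the overexpression library and 112 in the control library.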

How the data were processed

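The authors deposited whole-number counts per gene and FPKM values, per the file headers, with a log2 fold change of overexpression over control. Coordinates refer to GRCh38, the build in the submitters' processing notes. How reads were aligned and counted, with which strand setting and annotation, is not given in the sources used here. Per the labels' protocols, libraries were made from oligo(dT)-captured RNA with dUTP and PCR, and no molecular identifiers are described, so intervals cover counting error only. Counts were scaled by TMM (edgeR 4.0.16, R 4.3.3) over genes with at least 50 counts. A ratio is CPM over CPM with no constant added, with a 95% Clopper-Pearson interval on the overexpression library's part of each gene's counts. The authors' deposited table differed from these log2 ratios by at most 0.00773 over the members. A count of 3, the floor, equals 0.0625 CPM in the overexpression library and 0.0694 CPM in the control library, and every member exceeded it in both.

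Members and lists were chosen with earlier results of these data known. Named genes were the 15 highest by mean FPKM, the highest and lowest ratios with halved-count intervals on one side of 1-fold (at most 10 each), the 3 members and 3 other LINC genes nearest the minimum, both literature lists, the neighbours, IGF2BP3 and FASN. The other 1.5-fold different members, LINC01138, LINC01391 and the neighbour pairs outside this rule were named after their values were seen. Positions and transcripts came from GENCODE release 29. Interval coverage was tested on simulated data. Alternatives were library totals, DESeq2 1.42.0 size factors, halved counts, constants of 1 CPM or 1 FPKM, other count minimums and exon overlap. Python 3.11.15, numpy 2.4.6, pandas 2.3.3, scipy 1.17.1 and matplotlib 3.10.9 were used.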

Additional observations from a re-analysis of the deposited data

How the results depend on the processing

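With library totals in place of TMM, 15 rather than 16 LINC RNAs were at least 1.5-fold different, and with DESeq2 size factors 16; at 2-fold both gave 3. The count of 16 became 5 with halved counts, 2 with 1 added to CPM, 1 with 1 added to FPKM, 38 (27 higher, 11 lower) with a count minimum of 10, 2 with a minimum of 200, and 36 (26 higher, 10 lower) with no minimum beyond 1 count in each library. The 3 at 2-fold became 1 with halved counts, 0 with either constant, 25 (16 higher, 9 lower) with a minimum of 10, 0 with 200 and 23 (15 higher, 8 lower) with none. Constants shrink the ratios of rare genes by construction. Shares over all genes were not taken at the other count minimums. The number of LINC RNAs was 293 with a minimum of 10, 60 with 200 and 398 with none. The median log2 ratio of 0.04 was -0.073 in that last setting; the cause was not tested. Members with no exon overlap gave 14 at 1.5-fold, and those sharing few words with other genes, a choice made after seeing the data, gave 15. Of the 15 highest by FPKM, 13 remained by counts per kilobase of GENCODE exonic length, and 9 by CPM without length, also added later. No paired analysis was possible because each group has 1 library.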
